A study of Mus musculus with 36 samples.

Results

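The 37 genes of the mouse mitochondrial genome were followed through single microglia sorted from cortex and hippocampus. They were taken as all genes whose GENCODE vM21 symbol starts with mt-, and 37 of the 26348 genes in the deposited tables met that rule. They comprise 2 rRNA genes, 13 protein-coding genes and 22 tRNA genes, all on chromosome M, and held 1044522 counts, 1.61% of the total. The mice were males aged 6 months. APP mice were APPswe/PSEN1dE9 (APP/PS1) double transgenics, a line in which the mouse prion promoter drives a mutant APP and a mutant human presenilin, and the controls were WT. Live nucleated cells were sorted as DAPIneg DRAQ5pos CD11bhigh CD45int and split on CD11c, after mechanical dissociation at 4 °C, and plate-based libraries followed Smart-seq2.

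The titles gave 6 groups. CD11c-negative cells came from WT cortex (390 cells), APP cortex (454 cells), WT hippocampus (438 cells) and APP hippocampus (426 cells), each from 4 animals. CD11c-positive cells came from APP cortex (587 cells, 4 animals) and APP hippocampus (362 cells in 3 samples named 1-2, 2-3 and 4). The names 1-2 and 2-3 may mark pooled animals, and both may hold animal 2. By the titles, no CD11c-positive cells were WT. Libraries that shared animal, region and gate were added up, 36 in all, into 23 sums of 1037425 to 4484427 counts. P values measure the spread between these sums.

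Mitochondrial DNA is a small circle that is transcribed on both strands into long RNAs, from which rRNAs, mRNAs and tRNAs are cut. Its 13 proteins are all subunits of oxidative phosphorylation: complex I (Nd genes), complex III (Cytb), complex IV (Co genes) and ATP synthase (Atp6 and Atp8). Every other subunit, and all of the transcription and translation machinery apart from the rRNAs and tRNAs, is encoded in the nucleus. Microglia, the macrophages of the brain, carry CD11c on their surface in a subset found around amyloid plaques.

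Sequence sets the limits on which of these transcripts can be counted apart. Stretches of the mitochondrial genome were copied into nuclear chromosomes in the past, and 16 nuclear gene models in the tables matched a mitochondrial gene at 90% identity or more over at least 50% of their length. The 3 lines below give 90 bases of mt-Co1 (chrM:6498-6587 of GRCm38, plus strand) and the matching stretch of Gm29216 (chr1:24615991-24616080, minus strand) and of Gm13340 (chr2:22588388-22588477, minus strand). Capitals mark the bases that differ from mt-Co1.
mt-Co1: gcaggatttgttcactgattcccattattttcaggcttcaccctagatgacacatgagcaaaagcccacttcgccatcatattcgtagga
Gm29216: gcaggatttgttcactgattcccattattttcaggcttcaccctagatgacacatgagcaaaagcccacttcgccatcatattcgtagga
Gm13340: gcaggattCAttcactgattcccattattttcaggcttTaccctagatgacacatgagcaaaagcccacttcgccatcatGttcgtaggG
The Gm29216 stretch had 0 mismatches and the Gm13340 stretch 5, so a read from this window could not be placed between mt-Co1 and Gm29216 by its letters.

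Genes on opposite strands of the mitochondrial circle also overlap. The last 30 bases of mt-Nd5 (chrM:13536-13565, plus strand) and of mt-Nd6 (chrM:13552-13581, minus strand) are given with the 14 shared base pairs in capitals.
mt-Nd5: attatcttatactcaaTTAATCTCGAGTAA
mt-Nd6: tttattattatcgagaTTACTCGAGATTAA
The labels do not say whether counting used strand, so mt-Nd6 and the 8 tRNA genes on the minus strand cannot be told apart from plus-strand RNA that runs across them. The genome has 9 overlapping neighbours in all, among them mt-Atp8 and mt-Atp6 (43 bases), mt-Nd4l and mt-Nd4 (7 bases) and mt-Co1 and mt-Ts1 (3 bases). The genes mt-Co3 and mt-Cytb end on the first letter of a stop codon, in capitals below, which the poly(A) tail completes (background). Of the 13 coding genes, 10 end on a whole stop codon and 3 (mt-Co3, mt-Nd4 and mt-Cytb) on a T alone.
mt-Co3: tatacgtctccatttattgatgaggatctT
mt-Cytb: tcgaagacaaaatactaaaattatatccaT
These 30 bases lie at chrM:9361-9390 and chrM:15259-15288, both on the plus strand.

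Several features of the libraries bear on every comparison. The genotype tag of the labels differed from the title in 17 of 36 libraries, and groups follow the titles. Every library of the CD11c-positive APP hippocampus group carries the tag wt, as do the CD11c-positive cortical libraries of APP animal 3. No comparison that uses the CD11c-positive hippocampal group could therefore be recomputed with the tag. The titles carry an unexplained number, which was shared between gates only in cortex (numbers 3 to 6), so genotype, region and the hippocampal gate cannot be told apart from it. The libraries used 83 barcodes, 82 of them in at least 2 libraries. Itgax, which encodes CD11c, ran from 66.7 to 185 CPM (counts per 1000000 counts) in CD11c-positive sums and from 0 to 36.4 CPM in CD11c-negative ones. All 10 microglial markers were detected in every group, with a summed level of 7571 to 9397 CPM in CD11c-positive cortex and of 18497 to 22058 CPM in CD11c-negative APP hippocampus, the lowest and the highest group mean.

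Markers of neurons, astrocytes and oligodendrocytes had higher group means in cortex. All 10 neuronal markers were detected in each cortical group, with summed levels of 448 to 1622 CPM in WT, 608 to 1117 CPM in CD11c-negative APP and 924 to 1711 CPM in CD11c-positive APP cells. Hippocampal sums held 0 to 128, 1.77 to 107 and 45.2 to 184 CPM in the same order, with 3, 6 and 5 of the 10 markers at 0, Rbfox3 and Gad1 in all 3 groups. The 8 astrocyte markers summed to 409.7 to 1668, 395 to 1118 and 856 to 1925 CPM in cortex, and to 231 to 475, 175 to 395 and 135 to 146 CPM in hippocampus, where Aqp4 and Aldh1l1 were at 0. Oligodendrocyte markers summed to 211 to 406, 132 to 269 and 382 to 515 CPM in cortex and reached 133 CPM in hippocampus. Markers of other macrophages had their highest group mean in CD11c-positive APP hippocampus, at 76.1 to 124 CPM. They summed to 0 to 76.4 CPM in WT and 12.1 to 36.4 CPM in CD11c-negative APP hippocampus. In cortex they summed to 0.875 to 57.4, 4.54 to 57.3 and 0.446 to 30.2 CPM. Cells with a count in at least 2 markers of 1 other cell type made up 10% to 40.6% of the cells of a cortical sum and 0% to 4.14% of a hippocampal one. Their part in the cortical results below was not tested, beyond the values given without these cells.

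Mitochondrial transcripts took the largest share of counts in CD11c-positive cells of both regions, and in the hippocampus the share was ordered WT, CD11c-negative APP, CD11c-positive APP with no overlap between groups. In cortex the share was 1.14, 1.98, 0.943 and 1.01% in the 4 WT animals, 0.950, 0.903, 1.59 and 1.74% in CD11c-negative APP cells and 2.34, 2.08, 3.08 and 3.24% in CD11c-positive APP cells. The 2 CD11c-negative groups overlapped, and every CD11c-positive sum lay above both. In hippocampus the values were 0.707, 0.591, 0.651 and 0.722% in WT, 1.20, 1.12, 1.10 and 1.16% in CD11c-negative APP and 2.26, 2.01 and 2.66% in CD11c-positive APP cells. The group means were 1.27 ± 0.484 (SD, n = 4), 1.30 ± 0.432 and 2.68 ± 0.566 in cortex (n = 4 each), and 0.668 ± 0.0599, 1.14 ± 0.0450 (n = 4 each) and 2.31 ± 0.326 (SD, n = 3) in hippocampus. No test was run on this sum over genes.

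**Figure D1:**
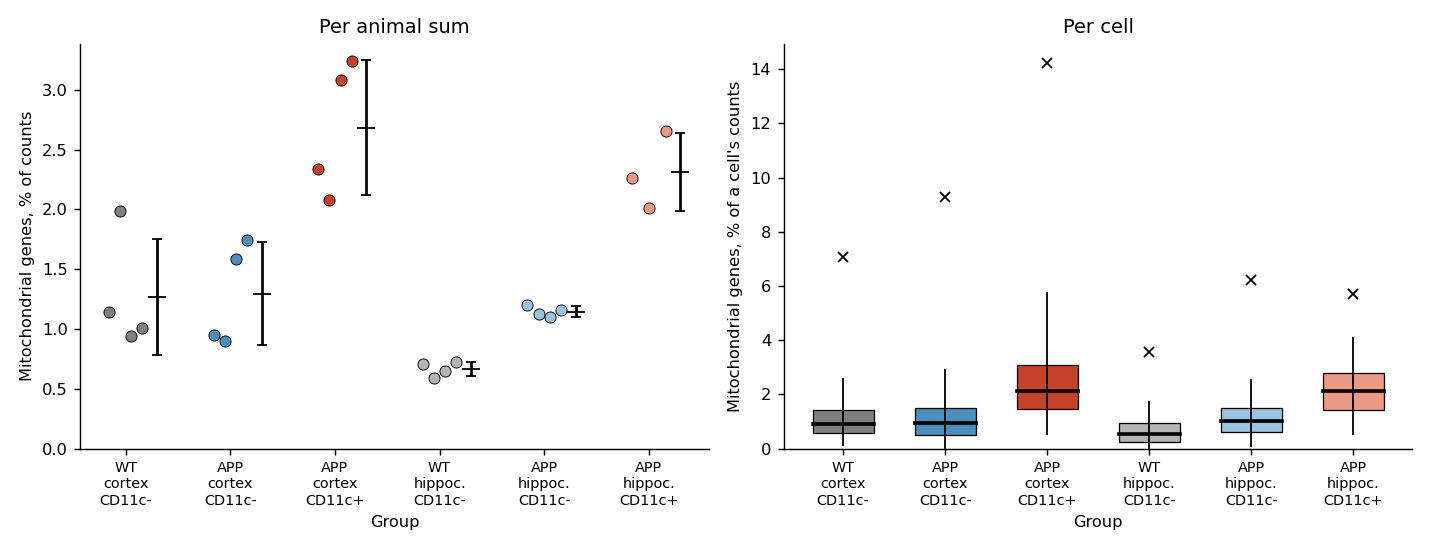
Share of counts in the 37 mitochondrial genes, in percent. The left panel gives one point per animal sum with the group mean and SD, and the right panel the cells of each group (box, quartiles; line, median; whiskers, 5th to 95th percentile; cross, highest cell). CD11c-positive groups sit at 2.01% to 3.24% per sum, and WT hippocampus at 0.59% to 0.72%.

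Animals differed in the same way on both sides of the cortical gate. APP animals 3 and 4 had the higher share in CD11c-negative as in CD11c-positive cells, and the ratio of CD11c-positive to CD11c-negative was 2.46, 2.30, 1.94 and 1.86 in animals 1 to 4. WT animal 2, at 1.98%, stood above the other 3 WT cortical sums. In CD11c-negative cortex, cells carrying other markers were most frequent in WT animal 2 (36.7% of its cells) and APP animal 3 (32.9%). WT animal 4, with a mitochondrial share of 1.01%, had 21.1% such cells, and APP animal 4 had 16.2%. Without such cells the shares were 1.0, 1.14, 0.83 and 0.91% in WT cortex, 0.83, 0.84, 1.20 and 1.33% in CD11c-negative and 1.82, 1.70, 2.20 and 2.29% in CD11c-positive APP cortex. The CD11c-positive sums still lay above all others, and the hippocampal means were 0.66%, 1.14% and 2.31%.

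In single cells the same order was seen. The median share was 0.90%, 0.95% and 2.13% in the cortical groups (WT, CD11c-negative APP, CD11c-positive APP) and 0.55%, 1.03% and 2.14% in the hippocampal ones. Cells at 2% or more made up 10% of WT and 12.1% of CD11c-negative APP cortical cells, against 54.9% of CD11c-positive ones, and 2.28%, 12.9% and 57.5% in hippocampus. Of the 2657 cells, none exceeded 20%, and the highest, in CD11c-positive cortex, had 14.2%. WT hippocampus held 12 of the 13 cells with no mitochondrial count. Depth per cell was similar, with group means of the median counts per cell of 17559 to 20798, while genes detected per cell, after thinning to 5000 counts, were most numerous in CD11c-positive cells: 425 ± 34.9, 584 ± 35.9 and 860.0 ± 162 genes in hippocampus, and 550.0 ± 40.1, 499 ± 81.4 and 783 ± 119 in cortex. The summed level of 5 RNAs kept in the nucleus, Malat1 among them, was 6328 to 8313 CPM in CD11c-negative and 4000.2 to 4504 CPM in CD11c-positive APP cortex. In hippocampus it was 4884 to 6721 CPM in WT, 6016 to 7854 CPM in CD11c-negative and 5367 to 5693 CPM in CD11c-positive APP cells. The part of these 2 measures in the share was not tested.

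Gene by gene, 2 mitochondrial genes, mt-Cytb and mt-Atp6, passed at the gate in both regions. In APP cortex 6 of the 37 mitochondrial genes were higher in CD11c-positive cells past an adjusted p of 0.05 and 0 were lower, where 0.524% of all 14892 genes tested were higher and 0.705% lower: mt-Nd1, mt-Cytb, mt-Co1, mt-Co3, mt-Atp8 and mt-Atp6. In APP hippocampus 4 were higher and 0 lower, against 0.443% and 0.107% of all genes: mt-Cytb, mt-Nd6, mt-Atp6 and mt-Te. The median log2 fold change of the 15 rRNA and protein-coding genes was 1.19 in cortex and 1.51 in hippocampus, with all 15 above 0 in both, also under the 3 other scalings tried, and that of all genes tested was 0.19 and 0. With the animal as a block, which the cortical design allows, the cortical count was 13 of 37, with mt-Rnr1, mt-Rnr2, mt-Nd2, mt-Nd4, mt-Nd5, mt-Nd6 and mt-Co2 added. The share of all genes called in that fit is not given here, so the change from 6 to 13 cannot be set against a background. The calls rest on few samples: leaving out 1 sum at a time gave 1 to 5 calls in cortex (1 without animal 1 or 2 among CD11c-negative sums, and without animal 1 or 4 among CD11c-positive ones) and 0 to 2 in hippocampus (0 without animal 1 of the CD11c-negative or sum 1-2 of the CD11c-positive group). With genotype taken from the tag, mt-Cytb was the 1 cortical call.

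**Figure D2:**
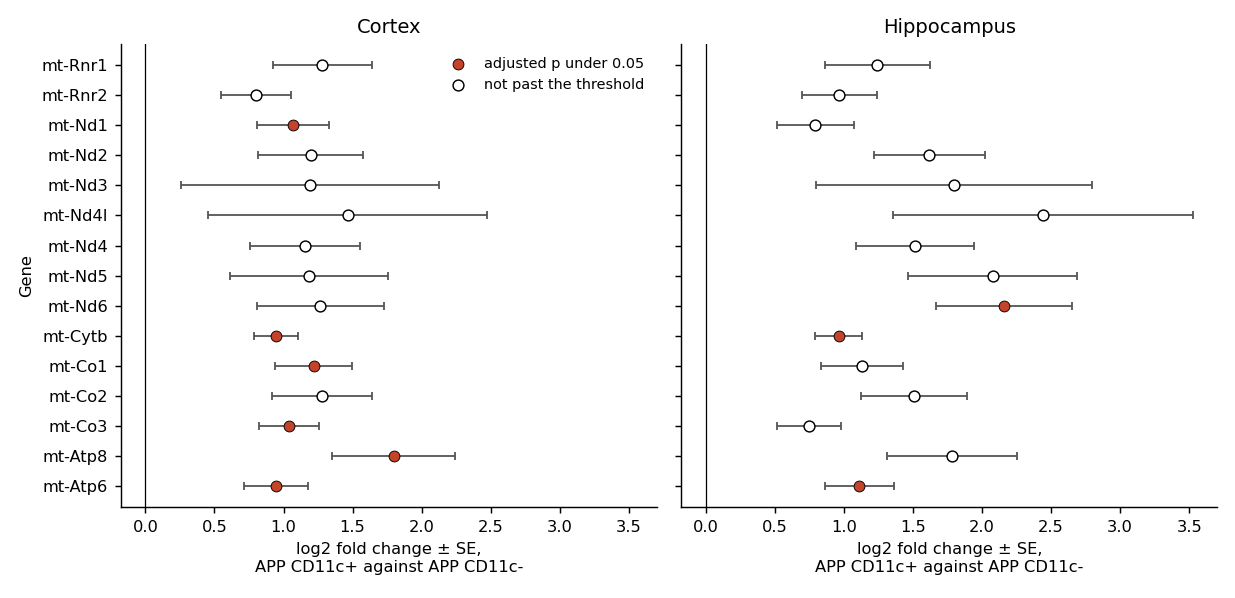
Log2 fold change with its SE of the 15 rRNA and protein-coding genes, CD11c-positive against CD11c-negative APP cells, in cortex and hippocampus. Filled points have an adjusted p under 0.05, 6 in cortex and 3 in hippocampus, and all 30 points lie right of 0.

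Against WT cells, CD11c-positive APP cells had 6 mitochondrial genes higher in cortex (0.618% of all genes were higher) and 13 in hippocampus (1.18% of all genes), and 0 lower in either (0.457% and 0.893% of all genes). These 2 comparisons share their samples with those of gate and genotype. In the cortex the count was 1 with the replicate number as a block, between 1 and 10 as sums were left out, and 10 without WT animal 2. All 15 rRNA and protein-coding genes had hippocampal sums that did not overlap between CD11c-positive APP and WT cells, where 14% of all genes did not overlap, and between CD11c-positive and CD11c-negative APP cells, where 11.1% did not. In cortex this held for 7 and for 9 of them, beside 10.5% and 12.3% of all genes.

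Genotype gave 1 call in CD11c-negative cells. In cortex 0 of 37 mitochondrial genes passed, by edgeR, at 0% of all genes, with 0 of 37 also at an unadjusted p under 0.05 and 0 calls by DESeq2. In hippocampus mt-Rnr1 was higher in APP cells and no other of the 37 passed, beside 0.329% of all genes higher and 1.19% lower. The test of whether the genotype effect differs between regions called 0 of 37, beside 1.01% of all genes, with 2 at an unadjusted p under 0.05 and 1 call by DESeq2. The test of whether the gate effect differs called 0 of 37, at 0% of all genes, with 1 at an unadjusted p under 0.05 and 0 by DESeq2.

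Between regions, most mitochondrial genes had lower values in hippocampal cells. In WT cells mt-Rnr1 and mt-Tc were lower in hippocampus (1.4% of all genes were lower), in CD11c-negative APP cells mt-Th (2.14%), and in CD11c-positive APP cells none (0.222%), with 11 at an unadjusted p under 0.05 and 5 calls by DESeq2. The fold was below 0 for all 37 genes in WT, for 36 in CD11c-negative APP and for 35 in CD11c-positive APP cells. The median log2 fold change of all genes tested was also below 0, at -0.22, -0.10 and -0.15. That of the 15 rRNA and protein-coding genes was -1.27, -0.58 and -0.42. The share of all genes below 0 is not given here. The paired fits by animal gave 0 calls in WT and in CD11c-negative APP cells. Neuronal and astrocyte markers had lower mean levels in the hippocampal groups. Without cells carrying other markers the counts were 0 in WT and 0 in CD11c-negative APP cells, with adjusted p of 0.286 for mt-Rnr1 and 0.920 for mt-Tc, while mt-Th did not enter that fit.

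**Figure D3:**
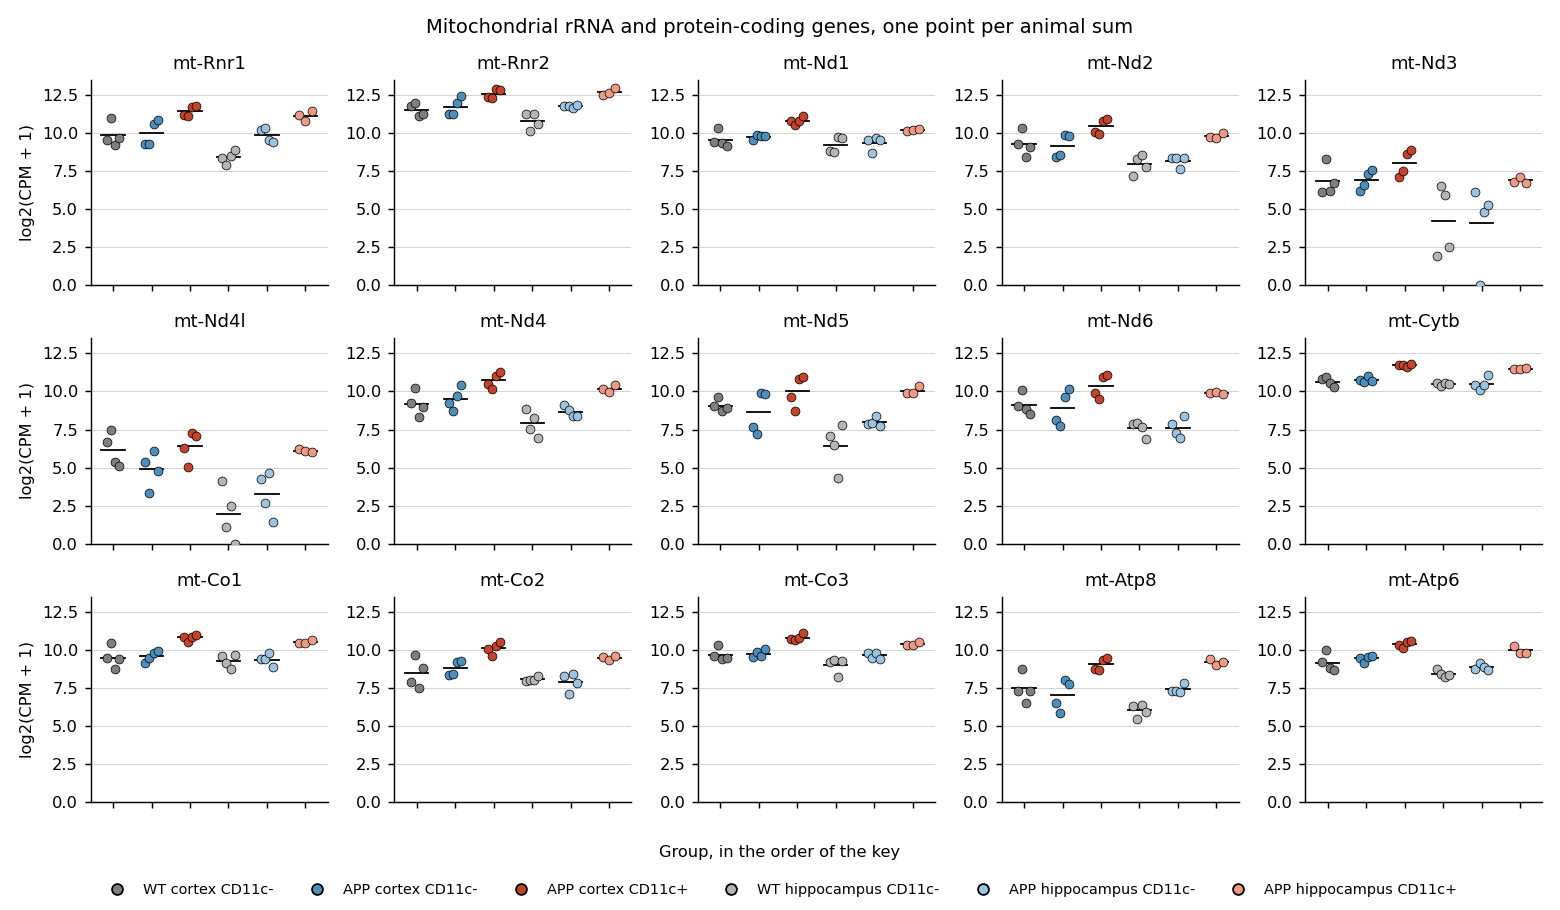
Level of the 15 rRNA and protein-coding genes in each animal sum, as log2(CPM + 1), in the 6 groups. Bars mark group means. mt-Nd3 and mt-Nd4l each have 1 sum at 0 in hippocampus.

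Levels per kb of gene length are given as counted. Annotated near-identical nuclear copies hold about as many counts again as mt-Co3, mt-Atp6, mt-Co2, mt-Nd3 and mt-Nd4l (below). These genes cannot be ranked against those without such a copy. Over the 23 sums the mean level was 2576 CPM per kb for mt-Rnr2, the rRNA of the large ribosomal subunit, and 1469 CPM per kb for mt-Rnr1, that of the small one. Among coding genes without an annotated near-identical copy it was 1804 for mt-Cytb, 1264 for mt-Nd6, 1028 for mt-Nd1, 667 for mt-Nd2 and 337 CPM per kb for mt-Nd5. For mt-Atp8 it was 1355 CPM per kb. That gene lies between mt-Co2 and mt-Atp6, whose copies lie at chr1:24614885-24615565 and chr1:24613974-24614651. The stretch between these copies was not searched for mt-Atp8. Such means cover groups that differ: mt-Atp8 was at 325 CPM per kb in WT and 2897 CPM per kb in CD11c-positive APP hippocampus. Whether counts fall evenly along a gene was not tested, so levels per kb do not rank short genes against long ones. The copy Gm29216 matches 31.3% of mt-Co1 and held 110% of its counts. Gm28439 matches 63.6% of mt-Nd4 and held 33.4% of its counts. The less alike copy Gm13339 matches 49.1% of mt-Nd2, at 96.7% identity, and held 39.7% of its counts. Of all mitochondrial counts mt-Rnr2 took 25.7% and mt-Cytb 13.3%, and the 22 tRNA genes together 27895 counts. Steadiness differed as well, and the biological coefficient of variation fitted by edgeR was 0.27 for mt-Cytb and 0.30 for mt-Co3, and 0.87 for mt-Nd3 and 0.91 for mt-Nd4l.

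The rRNA share of the mitochondrial counts was 33.2% ± 2.37, 34.5% ± 4.29 and 32.2% ± 1.56 (SD) in the cortical groups (WT, CD11c-negative APP, CD11c-positive APP). In hippocampus it was 30.6% ± 6.62 in WT, 43.3% ± 4.27 in CD11c-negative APP and 39.4% ± 2.78 in CD11c-positive APP cells, and the first 2 of these did not overlap. The level of mt-Rnr1 was 320.1, 237, 352 and 476 CPM in WT hippocampus, 1147, 1301, 751 and 693 CPM in CD11c-negative APP and 2289, 1802 and 2827 CPM in CD11c-positive APP hippocampus. Every step of that order was without overlap. The log2 fold change of mt-Rnr1 was 1.49 ± 0.36 (SE, adjusted p = 0.0312) for genotype, 1.24 ± 0.38 (SE, adjusted p = 0.192) for the gate and 2.73 ± 0.39 (SE, adjusted p = 0.000208) for CD11c-positive APP against WT. The genotype call was lost without 1 of 5 of the 8 sums (CD11c-negative APP animals 1 and 2, WT animals 1, 2 and 3; adjusted p up to 0.116), with the tag (adjusted p = 0.655) and with the replicate number as a block (adjusted p = 0.0617).

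In cortex mt-Rnr1 was at 748, 1985, 592 and 831 CPM in WT, 613, 631, 1512 and 1884 CPM in CD11c-negative and 2353, 2178, 3311 and 3432 CPM in CD11c-positive APP cells. WT animal 2 and APP animals 3 and 4 were high among CD11c-negative sums, and all 4 CD11c-positive sums lay above them, although the gate test gave 1.28 ± 0.36 (SE, adjusted p = 0.0974) and, with the animal as a block, an adjusted p of 0.0112. Between hippocampal and cortical WT cells the log2 fold change was -1.59 ± 0.36 (SE, adjusted p = 0.0262), a call that was lost without WT cortical animal 2 (adjusted p = 0.118), without hippocampal animal 2 or 3, and in the paired fit (adjusted p = 0.340). The second rRNA, mt-Rnr2, was detected in 90.7% of cells. Its levels were 2432, 1099, 2474 and 1539 CPM in WT hippocampus, 3538, 3522, 3154 and 3714 CPM in CD11c-negative and 5899.6, 6472 and 8059 CPM in CD11c-positive APP hippocampus, again in steps without overlap. For CD11c-positive APP against WT its log2 fold change was 1.85 ± 0.27 (SE, adjusted p = 0.000256) in hippocampus and 1.04 ± 0.26 (SE, adjusted p = 0.0431) in cortex.

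Complex I subunits made up 26.0% ± 3.51 to 28.0% ± 4.37 of the mitochondrial counts in cortical groups and 18.3% ± 1.78 in CD11c-negative APP hippocampus, the lowest group. The subunit mt-Nd1 was at 729, 925, 896 and 893 CPM in CD11c-negative and 1783, 1492, 1731 and 2214 CPM in CD11c-positive APP cortex. These groups did not overlap, and the log2 fold change was 1.07 ± 0.26 (SE, adjusted p = 0.0395), a call kept under 8 of 21 alternatives. In hippocampus mt-Nd1 gave 0.79 ± 0.28 (SE, adjusted p = 0.278) at the gate.

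The minus-strand subunit mt-Nd6 was at 236, 239, 203 and 118 CPM in WT, 236, 150.4, 120.0 and 338 CPM in CD11c-negative and 936, 993 and 896 CPM in CD11c-positive hippocampus. The CD11c-negative groups overlapped and the CD11c-positive sums stood above both, with a log2 fold change of 2.16 ± 0.49 (SE, adjusted p = 0.0400) at the gate, kept under 8 of 18 alternatives, and 2.24 ± 0.49 (SE, adjusted p = 0.0131) against WT, kept under 16 of 18. In cortex it ranged over 281, 215, 780.1 and 1134 CPM in CD11c-negative and 944, 711, 1949 and 2183 CPM in CD11c-positive APP cells. Animals 3 and 4 were above animals 1 and 2 on both sides, so that the groups overlapped, and the gate gave 1.27 ± 0.46 (SE, adjusted p = 0.254) over groups but an adjusted p of 0.00723 with the animal as a block.

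The neighbouring plus-strand gene mt-Nd5, the largest subunit of the set, showed the same split by animal, at 206, 148, 957 and 894 CPM in CD11c-negative and 792, 428, 1783 and 2008 CPM in CD11c-positive APP cortex. In hippocampus it was at 133, 88.2, 19.3 and 225 CPM in WT and 951, 960.2 and 1299 CPM in CD11c-positive APP cells, 3.20 ± 0.63 (SE, adjusted p = 0.00521). For mt-Nd2 and mt-Nd4 the log2 fold change against WT in hippocampus was 1.78 ± 0.40 (SE, adjusted p = 0.0163) and 2.14 ± 0.43 (SE, adjusted p = 0.00590). The levels of mt-Nd2 were 143, 316, 368 and 218 CPM in WT, 324, 321, 195 and 325 CPM in CD11c-negative and 852, 821 and 1013 CPM in CD11c-positive APP hippocampus. Those of mt-Nd4 were 457, 181, 307 and 124 CPM in WT, 549.6, 433, 336 and 330.3 CPM in CD11c-negative and 1134, 1011 and 1392 CPM in CD11c-positive cells. Both genes overlapped between WT and CD11c-negative APP cells and stood apart in CD11c-positive ones. The small subunits mt-Nd3 and mt-Nd4l passed in no comparison. Their group means ran from 33.6 ± 28.9 CPM (SD) in CD11c-negative APP hippocampus to 295 ± 158 CPM in CD11c-positive cortex for mt-Nd3, and from 5.58 ± 7.62 CPM in WT hippocampus to 98.6 ± 54.6 CPM in CD11c-positive cortex for mt-Nd4l. They were counted in 14.0% and 11.3% of cells, and 1 hippocampal CD11c-negative sum of each was at 0.

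The complex III subunit mt-Cytb had the lowest median coefficient of variation within groups (9.18%, but 30.1% in CD11c-negative APP hippocampus), and its cortical gate call was kept under all 21 alternatives. It was at 1787, 1998, 1475 and 1269 CPM in WT cortex, 1750.2, 1550.5, 2053 and 1651 CPM in CD11c-negative and 3395, 3394, 3117 and 3609 CPM in CD11c-positive APP cortex. In hippocampus the values were 1514, 1334, 1502 and 1409 CPM in WT, 1356, 1087, 1379 and 2129 CPM in CD11c-negative and 2870.2, 2876 and 2957 CPM in CD11c-positive APP cells. All 7 CD11c-positive sums lay above all 16 CD11c-negative ones. The gate gave 0.95 ± 0.16 (SE, adjusted p = 0.00119) in cortex and 0.96 ± 0.17 (SE, adjusted p = 0.00417) in hippocampus. The hippocampal call was kept under 15 of 18 alternatives and lost without CD11c-negative animal 1 (adjusted p = 0.0535) or without the CD11c-positive sum 1-2 (adjusted p = 0.0522), and when the 2 groups were fitted alone (adjusted p = 0.118). WT and CD11c-negative APP cells differed by 0.05 ± 0.16 (SE, adjusted p = 1) in hippocampus. As a share of mitochondrial counts mt-Cytb ran the other way, from 20.3% ± 1.41 in WT to 12.7% ± 0.969 in CD11c-positive APP hippocampus.

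Complex IV subunits took 15.4% ± 0.378 of mitochondrial counts in CD11c-positive APP hippocampus and 20.4% ± 5.41 in WT hippocampus, the lowest and the highest group. The catalytic subunit mt-Co1 was at 562, 708, 875 and 986 CPM in CD11c-negative and 1839, 1497, 1885 and 2063 CPM in CD11c-positive APP cortex, without overlap, 1.22 ± 0.28 (SE, adjusted p = 0.0246), a call kept under 13 of 21 alternatives. Its hippocampal gate value was 1.13 ± 0.30 (SE, adjusted p = 0.0910). The third subunit, mt-Co3, was at 745, 915, 785 and 1048 CPM and 1662, 1574, 1775 and 2167 CPM in the same cortical groups, 1.04 ± 0.22 (SE, adjusted p = 0.0113), kept under 14 of 21. The level of mt-Co2 was 243, 257, 255 and 315 CPM in WT, 315, 134, 338 and 231 CPM in CD11c-negative and 735, 653 and 786 CPM in CD11c-positive APP hippocampus, with 1.44 ± 0.38 (SE, adjusted p = 0.0485) against WT. For mt-Co2 the gate gave 1.28 ± 0.36 (SE, adjusted p = 0.103) in cortex, where the adjusted p was 0.00723 with the animal as a block, and 1.51 ± 0.38 (SE, adjusted p = 0.0780) in hippocampus.

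Of the ATP synthase subunits, mt-Atp6 passed at both gates and mt-Atp8 in cortex. The levels of mt-Atp6 were 713, 571, 740.4 and 781 CPM in CD11c-negative and 1272, 1108, 1474 and 1550.4 CPM in CD11c-positive cortex, and 437, 562, 465 and 409 CPM and 1235, 904 and 896 CPM in hippocampus. Neither pair of groups overlapped, and the log2 fold change was 0.95 ± 0.23 (SE, adjusted p = 0.0411) and 1.11 ± 0.25 (SE, adjusted p = 0.0342). These calls were kept under 7 of 21 and 7 of 18 alternatives, and that of mt-Atp8 in cortex under 8 of 21. The short gene mt-Atp8 was at 90.9, 57.2, 263 and 216 CPM and 421, 408, 645 and 700.3 CPM in cortex, 1.80 ± 0.45 (SE, adjusted p = 0.0443), the widest fold among the cortical calls. In hippocampus mt-Atp8 rose from 80.0, 42.4, 83.6 and 58.9 CPM in WT to 670.4, 516 and 587 CPM in CD11c-positive APP cells, 3.16 ± 0.49 (SE, adjusted p = 0.000442), while the hippocampal gate gave 1.78 ± 0.47 (SE, adjusted p = 0.0944). Within the 4 APP animals all 15 rRNA and protein-coding genes were higher in CD11c-positive cortical cells in each animal, by 1.32 to 7.14 times. The range over animals was 1.78 to 1.99 times for mt-Atp6, 1.52 to 2.19 times for mt-Cytb and 2.45 to 7.14 times for mt-Atp8.

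In WT cortex, the reference of the remaining cortical calls, animal 2 stood above the other 3 for each of these genes. The levels there were 664, 1306, 655 and 559 CPM for mt-Nd1, 694, 1408, 420.0 and 662 CPM for mt-Co1, 759.9, 1257, 677 and 702 CPM for mt-Co3 and 579.8, 1004, 442 and 402 CPM for mt-Atp6. All 4 genes lay below the CD11c-positive APP sums without overlap. Their log2 fold changes for CD11c-positive APP against WT cortex were 1.18 ± 0.26, 1.19 ± 0.28, 1.08 ± 0.22 and 1.15 ± 0.23 (SE), with adjusted p of 0.0223, 0.0302, 0.0107 and 0.0111 in edgeR. For mt-Cytb the value was 1.05 ± 0.16 (SE, adjusted p = 0.000419), a call kept under all 21 alternatives.

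Counts in tRNA genes fell mostly in those annotated on the minus strand; the strand of the RNA itself was not tested. These 8 genes held 83.6% of all tRNA counts, led by mt-Tq (glutamine), mt-Ts1 (a serine tRNA) and mt-Te (glutamate). Their sequences, 5′ to 3′ on the minus strand, are given because each lies opposite or beside a plus-strand transcript, at chrM:3772-3842, chrM:6870-6938 and chrM:14071-14139.
mt-Tq: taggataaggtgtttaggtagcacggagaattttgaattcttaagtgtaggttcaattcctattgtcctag
mt-Ts1: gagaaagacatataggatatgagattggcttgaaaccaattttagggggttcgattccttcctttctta
mt-Te: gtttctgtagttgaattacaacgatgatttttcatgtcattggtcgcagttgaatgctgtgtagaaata
The gene mt-Ts1 overlaps the end of mt-Co1 by 3 bases, mt-Tq overlaps the plus-strand tRNA gene mt-Ti by 3 bases, and mt-Te lies next to mt-Nd6 on the same strand. In hippocampus genes annotated on the minus strand held 97.1%, 98.1% and 97.2% of tRNA counts on average (WT, CD11c-negative APP, CD11c-positive APP), with every sum above 94%, and in cortex 82.9%, 80.5% and 80.9%, with every sum below 90%. Of the 22 tRNA genes, 9 had 0 counts in all WT hippocampal sums, 8 in CD11c-negative APP and 3 in CD11c-positive APP hippocampus, and 0 in any cortical group. Thus mt-Th, the histidine tRNA, had 29, 22, 36 and 7 counts in CD11c-negative APP cortex and 0 in each hippocampal sum of that group (adjusted p = 0.0270), and mt-Tc, the cysteine tRNA, 53, 171, 76 and 23 counts in WT cortex and 13, 0, 0 and 0 in WT hippocampus (adjusted p = 0.0473). The mt-Th call was lost in 6 of 19 alternatives (adjusted p up to 0.258) and the mt-Tc call in 14 of 21 (adjusted p up to 0.920).

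**Figure D4:**
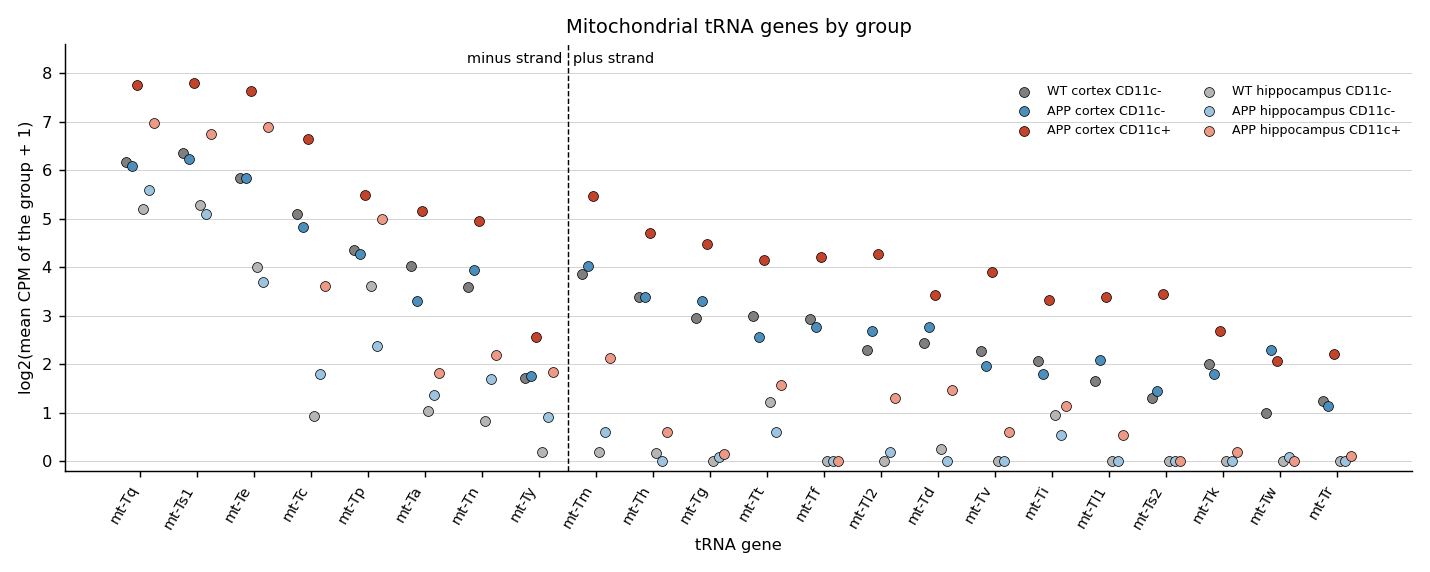
Mean level of the 22 tRNA genes in each group, as log2(mean CPM + 1), split by annotated strand. In the hippocampal groups 9, 8 and 3 genes sit at 0, in cortex none, and CD11c-positive cortex is highest for all genes but mt-Tw.

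At the gate mt-Te was the 1 tRNA gene past the threshold. It was at 21.0, 10.6, 3.81 and 12.3 CPM in CD11c-negative and 109.7, 147 and 94.6 CPM in CD11c-positive APP hippocampus, without overlap, 3.29 ± 0.75 (SE, adjusted p = 0.0400), and against WT it gave 2.95 ± 0.74 (SE, adjusted p = 0.0341). The gate call was kept under 4 of 18 alternatives. In cortex the values were 23.7, 35.5, 92.9 and 73.4 and 119, 95.4, 244 and 327 CPM, which did not overlap, with 1.80 ± 0.68 (SE, adjusted p = 0.277). For mt-Tq and mt-Ts1 the cortical gate gave 1.68 ± 0.52 (SE, adjusted p = 0.159) and 1.58 ± 0.54 (SE, adjusted p = 0.221).

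Pairs of genes were also compared across cells. In cells thinned to 5000 counts, Spearman's rho was computed within each group for the 78 pairs of mitochondrial genes detected in at least 10% of the cells of every group, and its median over pairs was 0.18. Among these pairs the highest median was that of mt-Co1 with mt-Ts1, at 0.43 over 6 groups (0.28 to 0.53 in 353 to 571 cells), against 0.30 for mt-Co2 with mt-Nd4, the second. Between mt-Nd5 and mt-Nd6 rho was 0.56 in CD11c-positive cortex (571 cells) and 0.33 in CD11c-positive hippocampus (353 cells), and between mt-Nd6 and mt-Te 0.51 and 0.44. These pairs were not detected in enough cells of every group to enter the 78, and in both CD11c-positive groups they exceeded mt-Co1 with mt-Ts1 (0.46 and 0.28), as mt-Nd5 with mt-Nd6 did in CD11c-negative APP cortex (0.54 against 0.41). Cells of 1 sum share a library, and pairs share the total they are scaled to.

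Nuclear copies took a share of counts as large as 33.6% of the mitochondrial total. The 16 nuclear gene models held 351059 counts, and 13 of them at least 1% of the counts of their mitochondrial counterpart. Of these, 7 matched at 99% identity or more, all within chr1:24611535-24616197 on the minus strand, and held 274323 counts. Gm28437, identical to 783 of the 784 bases of mt-Co3, had 75006 counts beside 69495 for mt-Co3. Gm10925 had 53703 beside 50934 for mt-Atp6, Gm28661 37435 beside 36852 for mt-Co2, and Gm29216, which matches 483 of the 1545 bases of mt-Co1, 76355 beside 69337. The other 3, Gm28439 (mt-Nd4), Gm28438 (mt-Nd3) and Gm10222 (mt-Nd4l), held 19080, 9077 and 3667 counts. The copies on chromosome 2 are less alike: Gm13340 matches mt-Co1 at 97.6%, Gm13339 mt-Nd2 at 96.7% and Gm13341 mt-Co2 at 95.9%, and they held 37910, 18449 and 15275 counts. On chromosomes 4 and 13, Gm11408 (mt-Nd6), Gm4076 (mt-Nd5) and Gm11407 (mt-Nd5) held 1975, 1727 and 1217 counts.

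**Figure D5:**
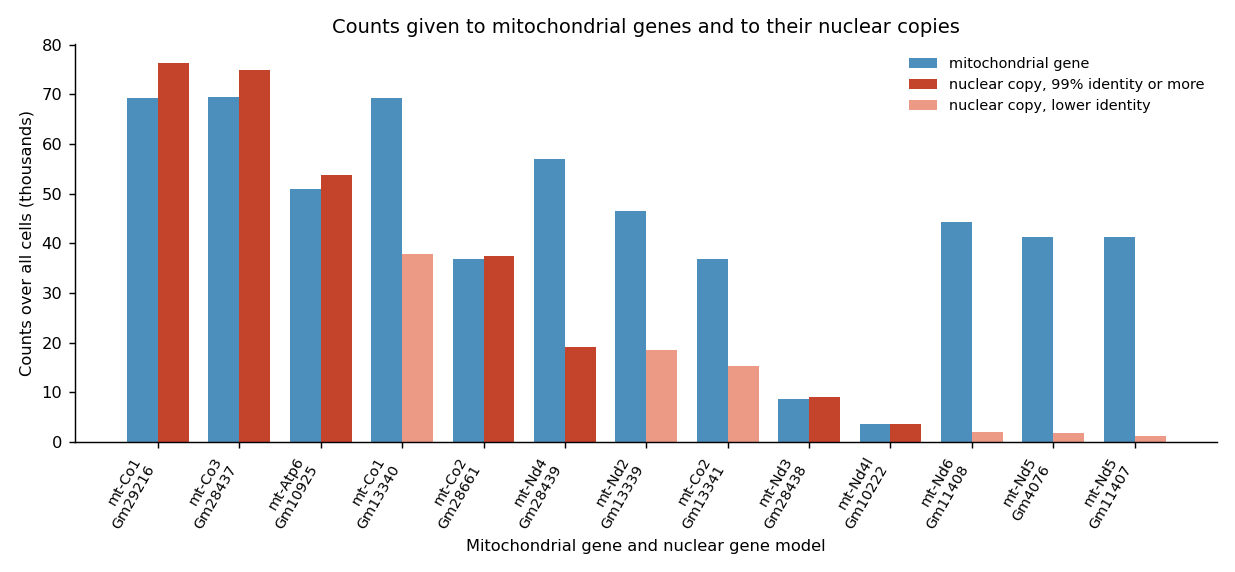
Counts over all cells, in units of 1000, of mitochondrial genes and of the 13 nuclear gene models that hold at least 1% of their counts. Near-identical copies of mt-Co3, mt-Atp6, mt-Co2, mt-Nd3 and mt-Nd4l have about as many counts as the mitochondrial gene.

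In cells with at least 20 counts over such a pair, the mitochondrial gene held 48.1% of the counts of the mt-Co3 pair (1029 cells), 48.8% of the mt-Atp6 pair (1066 cells) and 49.6% of the mt-Co2 pair (648 cells). The variance of that share between cells was 0.76, 0.79 and 0.71 times the binomial one. A value of 1 is what random assignment of each count would give. It was 0.95 for mt-Nd3 and 0.50 for mt-Nd4l, and above 1 for the pairs of mt-Co1 with Gm29216 (3.72) and mt-Nd4 with Gm28439 (14.7), copies that match 31.3% and 63.6% of the gene. The labels do not say how reads with more than 1 match were assigned. Among the copies that passed at the cortical gate, the log2 fold change was 1.08 ± 0.22 for Gm28437 (adjusted p = 0.00837), 0.97 ± 0.23 for Gm10925 (adjusted p = 0.0318), 1.17 ± 0.26 for Gm29216 (adjusted p = 0.0162) and 1.34 ± 0.28 for Gm13340 (adjusted p = 0.0117). No near-identical annotated copy was found for mt-Cytb, mt-Nd1, mt-Nd6 or the rRNAs. Copies without a gene model were not searched for, so whether the calls of these genes rest on such a split was not tested.

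Nuclear genes of the same organelle were read against all genes. Of 79 nuclear-encoded respiratory chain genes tested, 2 were higher at the cortical gate (Ndufa1 1.73 ± 0.43, adjusted p = 0.0425, and Ndufa6 2.84 ± 0.60, adjusted p = 0.0121, both complex I subunits) and 1 at the hippocampal gate (Ndufa1, 2.54 ± 0.46, adjusted p = 0.00561), with 0 lower, beside 0.524% and 0.443% of all genes higher. Their median log2 fold change was 0.89 and 0.66, beside 0.19 and 0 for all genes, with 75 and 69 of 79 above 0. The most abundant of them, Cox7c and Cox4i1 of complex IV, had 1.01 ± 0.31 (adjusted p = 0.147) and 1.38 ± 0.38 (adjusted p = 0.0789) at the cortical gate. Against WT, 4 were higher in cortex (Ndufa1, Cox7a2, Cox6b1 and Uqcrq; 0.618% of all genes) and 4 in hippocampus (Ndufa1, Cox4i1, Atp5k and Sdhd; 1.18% of all genes). Sdhd, a complex II subunit, also passed for genotype in hippocampus, between regions in WT and in the test of genotype by region. All of its calls used the WT hippocampal group, where it was near the floor, at 0.141 ± 0.282 CPM (SD).

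Of 40 genes tested for transcription, processing and maintenance of mitochondrial DNA and RNA, 0 passed in either direction in any of the 11 comparisons by edgeR, beside 0.524% and 0.443% of all genes higher at the cortical and hippocampal gate, so that a count of 0 in a list of this size is near the background. At an unadjusted p under 0.05, 2 were higher and 1 lower at each gate, and DESeq2 called 0 at the cortical and 1 at the hippocampal gate. Their median log2 fold change was -0.71 at the cortical and -0.23 at the hippocampal gate, with 12 and 14 of 40 above 0. For genotype in cortex, where 0% of all genes passed by edgeR, the median of these genes was 0.41, with 26 of 40 above 0. The 2 most abundant were Angel2, at -0.67 ± 0.42, and Ssbp1, which binds single-stranded mitochondrial DNA, at -0.76 ± 0.77 at the cortical gate (adjusted p = 0.610 and 0.885). Of 75 mitochondrial ribosomal protein genes tested, 0 passed at either gate by edgeR, with medians of 0.19 in both. At an unadjusted p under 0.05, 2 were higher and 0 lower at each gate, with 1 and 0 calls by DESeq2. In the other comparisons Mrps28 was the 1 member to pass, higher against WT in hippocampus and lower in hippocampal than in cortical WT cells. Both calls used the WT hippocampal group, where Mrps28 was near the floor, at 0.141 ± 0.282 CPM (SD). The most abundant, Mrps33 and Mrpl42, had -0.47 ± 0.44 and 0.99 ± 0.40 at the cortical gate (adjusted p = 0.858 and 0.322).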

How the data were processed

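Deposited per-cell tables of counts per Ensembl gene from 36 plate libraries were used. Per the submitters' processing notes the authors used UMI-tools 0.5.3, HISAT2 2.1.0 and featureCounts 1.6.0 with the mouse build GRCm38 (mm10). How UMIs were merged, how strand was used and how reads with several matches were counted are not given in the sources used here. All 26348 gene identifiers matched GENCODE vM21.

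Of 2660 barcodes, 2657 with at least 200 genes were kept, with 65037665 counts before this filter and a median of 19482 counts and 805 genes per cell. Libraries (956491 to 2340598 counts) were summed to 23 sums by title group and animal. The 13 sums made of 2 libraries differed in mitochondrial share between them by 1.01 to 1.35 times. Of 630 library pairs, 0 were identical. In edgeR 4.0.16 (R 4.3.3), genes were filtered with filterByExpr (14892 tested), scaled by TMM and fitted by quasi-likelihood with 6 groups and 17 residual degrees of freedom, with Benjamini-Hochberg adjusted p values over all genes and a threshold of 0.05. CPM are scaled by TMM, except those of markers and Itgax, which use total counts. Errors are SE for fold changes and SD for levels. Nuclear copies were found with BLAST 2.17.0 among the GENCODE vM21 transcripts, so copies without a gene model were not searched for. The fit was also run on simulated counts with changes set at the cortical gate only, and the outcome is not given here.

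Sums of the same named animal pair the cortical gates and the regions of CD11c-negative cells, and correlations of their deviations ran from -0.06 to 0.07 over 3480 genes. Alternatives covered scaling, filters, depth, marked cells, the genotype tag, DESeq2 1.42.0, a replicate block and leaving out each sum. Fits on the compared groups alone, counts with near-identical copies added, and shares without marked cells were chosen after the data were seen. The text accounts for all 37 genes, names members of the nuclear lists past the threshold and the 2 with the highest mean CPM, and names nuclear copies that hold at least 1% of the counts of their mitochondrial gene. The members and lists were chosen with earlier results of these data known.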

Additional observations from a re-analysis of the deposited data

Results flagged for a closer look

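The levels of the 15 rRNA and protein-coding genes and the mitochondrial share, in the 5 groups of 4 animals, were checked for a sample far from the other 3 (a gap above 0.829 of the range), and 7 of 80 checks met this, where chance gives about 1 in 20. In WT cortex, animal 2 stood high for mt-Nd1 (1306 CPM), mt-Co3 (1257 CPM) and mt-Nd3 (313 CPM), and 36.7% of its cells carried markers of another cell type. In CD11c-negative APP cortex, animal 1 stood low for mt-Nd1 (729 CPM). In WT hippocampus, animal 3 stood low for mt-Co3 (303 CPM). In CD11c-negative APP hippocampus, animal 3 stood low for mt-Nd2 (195 CPM) and animal 4 high for mt-Atp8 (226 CPM).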

How the results depend on the processing

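Over 36 settings, no mitochondrial gene named as past the threshold changed sign. Of 640 recomputed gene results 435 stayed past the threshold and 205 lost it, and 9 of the 33 gene results were kept in every setting run. The counts of genes past the threshold moved more. Shares of all genes called under each of these settings, by DESeq2 or at an unadjusted p are not given here. At the cortical gate the count of 6 became 3 with RLE factors, 3 with scaling without mitochondrial genes, 2 with cells of at least 500 genes, 11 with thinned cells, 2 without cells carrying other markers, 1 with the genotype tag and 13 with the replicate block. At the hippocampal gate the count of 4 became 1 with RLE factors, 1 with library size only, 10 without the gene filter, 1 with cells of at least 500 genes, 8 with thinned cells, 2 without marked cells and 8 with DESeq2. Genotype in hippocampus went from 1 to 2 with RLE factors, library size only, no gene filter, thinned cells, no marked cells or the compared groups alone, to 3 with DESeq2, and to 0 with cells of at least 500 genes or the tag. With the replicate block it stayed at 1, with mt-Rnr2 in place of mt-Rnr1. CD11c-positive cells against WT in cortex went from 6 to 1 with the replicate block and to 3 with the compared groups alone.

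Between regions in WT the count of 2 became 7 with RLE factors, 8 with library size only, 1 with scaling without mitochondrial genes, 7 without the gene filter, 4 with thinned cells, 4 with copies added, 18 with DESeq2, and 0 without marked cells, with the tag, with the replicate block or with the compared groups alone. In CD11c-negative APP cells the count of 1 became 2 with cells of at least 500 genes, 3 with the tag, 7 with DESeq2, and 0 with thinned cells, without marked cells or with the replicate block. In CD11c-positive cells the count of 0 became 5 with DESeq2 and 4 with the compared groups alone. The genotype effect between regions went from 0 to 1 with DESeq2. Other scalings moved the median log2 fold change of all genes by over 0.1 in some comparisons, at most for genotype by region (0.18 with TMM, 0.50 with library size only) and for genotype in hippocampus (0.01 and 0.27), where the median of the 15 rRNA and protein-coding genes was 0.44 and 0.68. The cause of these moves was not tested. The block rests on shared animal names in the cortical gate and the 2 region comparisons of CD11c-negative cells, and on a shared number alone in the genotype comparisons. No paired analysis was possible because fewer than 2 numbers are shared for the hippocampal gate, CD11c-positive against WT hippocampus, the regions of CD11c-positive cells and the gate by region test.

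Leaving out 1 sum gave 1 to 5 calls at the cortical gate, 0 to 2 at the hippocampal gate, 1 to 10 and 8 to 12 for CD11c-positive against WT in cortex and hippocampus (8 without sum 1-2), 0 to 1 for genotype in hippocampus, 0 to 6 for region in WT (6 without cortical animal 3 or hippocampal animal 1), 0 to 3 for region in CD11c-negative APP (3 without cortical animal 1 or 2, 0 without hippocampal animal 1, 2 or 3), and 0 in every run of the other 4 comparisons. The cortical gate gave 2 without animal 3 on either side, and CD11c-positive against WT in cortex 1 without WT animal 3 or 4 or CD11c-positive animal 4.

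The mean share ran from 1.03 to 1.38% in WT cortex, 1.15 to 1.43% in CD11c-negative and 2.50 to 2.89% in CD11c-positive APP cortex, 0.650 to 0.694% in WT, 1.13 to 1.16% in CD11c-negative and 2.14 to 2.46% in CD11c-positive APP hippocampus as 1 sum was left out. Without the rRNAs it was 0.837% and 1.82% in CD11c-negative and CD11c-positive APP cortex, and 0.462%, 0.649% and 1.39% in WT, CD11c-negative and CD11c-positive APP hippocampus. With nuclear copies it was 3.64% in CD11c-positive cortex, and 0.908%, 1.47% and 3.00% in hippocampus in the same order. The median of cells gave 0.565% in WT and 1.02% in CD11c-negative APP hippocampus, the tag 0.817% and 0.933%, and CD11c-positive cortex without marked cells 2.00%.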
